A study of Mus musculus with 10 samples.

Results

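Collagens are the proteins of 3 chains, wound into a triple helix, that form the fibres, sheets and filaments of the extracellular matrix. The listed family comprised 42 collagen chain genes, picked by symbol from a table of 55291 genes, and is described here by class. RNA of the submandibular gland was sequenced in 10 C57BL/6J mice, 8 weeks old, as 10 libraries. For the 5 ligated mice a ligature closed the right duct for 7 days, and the 5 sham mice had the skin opened and the gland freed with no tie placed. No other treatment or allele is named for either group. The operation is used as a model of obstructive sialadenitis, and the question addressed was how the gland differs after 7 days of obstruction. Values are FPKM, fragments per kilobase of gene model scaled to library size, in 1 column per library.

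Type I and type III collagen, with type V, form the striated fibrils of connective tissue and are made mainly by fibroblasts. Type IV chains form the sheet under epithelium and around vessels, type VI forms beaded filaments next to it, and the FACIT chains decorate the surface of fibrils. In a salivary gland, collagen lies in the capsule, in the septa between lobules and in the basement membranes of acini and ducts, and its fibrillar types are known to accumulate in chronic sialadenitis.

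The depth recovered from the values was 12105738 to 17305591 reads per library, so 3 reads on a gene of 1 kilobase gave 0.173 to 0.248 FPKM. Defining products of the submandibular gland were high in all libraries, with Mucl2, a mucin-like secretory gene, at 3940.3 FPKM or more in each. All 10 libraries held Y-linked transcripts (Ddx3y, an RNA helicase gene, at 3.58 FPKM or more) and at most 0.0267 FPKM of Xist, although the labels name female mice. Markers of lymph node were high in sham 1 and ligated 1, 2 and 3, and Bpifa2, a saliva protein abundant in the parotid, in sham 1 and ligated 2, 3 and 5. Of the 5 parotid genes listed, Amy1 and Prb1 were high in the same libraries as Bpifa2, and Prh1 was above 0 only in ligated 3 and 5. Car6 did not follow, at 8728 to 18095 FPKM in sham and 1788 to 9106 FPKM after ligation, lowest in ligated 2. The 8 adipocyte and the 8 skeletal muscle markers were higher in every ligated than in every sham library, with summed levels of 2.27 to 18.6 against 218 to 849.5 FPKM and of 1.75 to 3.97 against 29.3 to 689 FPKM. The FPKM of all genes summed to 504092 to 604875 in sham and 337121 to 454370 in ligated libraries, so changes are also given after median-ratio scaling of the libraries.

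Promoter sequences were taken from RefSeq for the pair of genes that shares one and for a pair of fibril chains with large rises. They run 5′ to 3′ on the strand of the gene over 300 bases, from 250 before the annotated start to 50 from it onward, on GRCm38.p6. Col4a1 and Col4a2, which encode the 2 chains of the common type IV trimer, lie head to head on chromosome 8. Their gene models overlap by 22 bases and their annotated starts are 21 bases apart. The windows, chr8:11312777-11313076 on the minus strand and chr8:11312555-11312854 on the plus strand, therefore share 78 bases, set in capitals.
Col4a1: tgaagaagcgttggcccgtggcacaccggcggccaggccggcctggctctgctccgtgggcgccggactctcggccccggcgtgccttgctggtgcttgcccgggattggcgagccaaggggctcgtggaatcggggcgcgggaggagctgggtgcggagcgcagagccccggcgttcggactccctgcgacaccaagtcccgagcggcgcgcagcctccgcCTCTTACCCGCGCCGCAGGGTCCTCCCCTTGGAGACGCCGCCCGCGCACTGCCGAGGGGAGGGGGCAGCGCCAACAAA
Col4a2: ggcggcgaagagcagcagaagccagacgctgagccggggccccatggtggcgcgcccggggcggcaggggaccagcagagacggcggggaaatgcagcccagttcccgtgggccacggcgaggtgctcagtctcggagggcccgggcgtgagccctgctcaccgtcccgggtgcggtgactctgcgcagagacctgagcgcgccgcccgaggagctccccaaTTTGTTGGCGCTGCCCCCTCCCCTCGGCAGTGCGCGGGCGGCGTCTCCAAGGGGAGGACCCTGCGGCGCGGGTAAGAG
Col1a2 (chr6:4505368-4505667, plus strand) and Col3a1 (chr1:45311288-45311587, plus strand) encode chains of types I and III. Capitals mark the letters CCAAT or, for the other strand, ATTGG.
Col1a2: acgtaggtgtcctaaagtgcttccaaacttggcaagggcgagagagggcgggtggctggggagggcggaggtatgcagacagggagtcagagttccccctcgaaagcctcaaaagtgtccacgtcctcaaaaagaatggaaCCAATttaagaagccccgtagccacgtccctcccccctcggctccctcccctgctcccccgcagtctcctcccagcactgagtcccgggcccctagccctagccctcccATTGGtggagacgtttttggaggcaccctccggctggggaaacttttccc
Col3a1: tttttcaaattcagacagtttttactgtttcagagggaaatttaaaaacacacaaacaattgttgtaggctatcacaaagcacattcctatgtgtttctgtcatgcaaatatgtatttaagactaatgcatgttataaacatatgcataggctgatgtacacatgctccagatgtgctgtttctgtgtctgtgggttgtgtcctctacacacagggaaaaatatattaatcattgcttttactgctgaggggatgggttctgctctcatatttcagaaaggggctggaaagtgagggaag
The Col1a2 window held CCAAT at position -109 from the start and ATTGG at the start itself, and 61.0% of its bases were G or C. The Col3a1 window held neither, with 37.7% G or C, and the Col4a1 and Col4a2 windows held 74.0% and 73.7%.

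RefSeq windows were found for 33 of the 42 genes, 35 windows in all. CCAAT, on either strand, was in 11 of the 35, against 37.4% of all 32851 windows of this length. GGGCGG or its complement CCGCCC, the GC box, was in 22 of 35, against 35.7% of all, and TATAAA or TTTATA in 5 of 35, against 13.6%. Each motif was counted separately, and the matches describe these windows only.

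After duct ligation most of the tested collagen genes were higher, with Col1a1, a fibril chain, at the top. The summed FPKM of the 42 genes was 204, 310.0, 256, 217 and 261 in sham 1 to 5 and 1321, 6137, 2462, 2665 and 4656 in ligated 1 to 5. The lowest ligated library, ligated 1, lay above the highest sham library, sham 2. Genes were compared with limma on log2(FPKM + 1), and a call required both an adjusted p (Benjamini-Hochberg) below 0.05 and a log2 change of 1 or more either way. Of the 42 genes, 25 reached 1 FPKM in at least 5 libraries and were tested, of which 21 were called higher and 0 lower. Of all 11856 genes tested, 17.1% were called higher and 1.16% lower. At an unadjusted p under 0.05, and by voom on recovered reads, 0 members were lower as well.

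Of the 25, 18 were at 1 FPKM or more in all sham libraries, and 15 of those 18 were called. The count leans on the filter, since Col6a6 and Col27a1 were under 1 FPKM in every sham library and entered through the ligated group alone. Col4a5, Col8a1, Col8a2, Col9a3 and Col12a1 reached 1 FPKM in only 1 or 2 sham libraries and passed through the ligated ones as well. The count and the p-values of these genes are therefore no support in themselves. With no filter all 42 genes were tested, and 22 were called higher (7.68% of 26754 genes) and 0 lower (0.404%), the added one being Col11a1. Ligated and sham libraries did not overlap in 26 of the 42, all higher in the ligated group, against 16.0% of the 26754 genes, and 0 were lower without overlap (0.680%). Of the 25 tested, 20 were higher without overlap, against 30.2% of the tested genes, and 0 lower (1.12%). The median log2 fold change of the 42 members was 1.20, beside 0.18 for all 26754 genes. Among the 11856 tested genes the median was 0.53, and median-ratio scaling brought it to -0.01. After that scaling 19 members and 6.84% of genes were called higher, 0 members and 4.20% of genes lower. Quantile normalization also gave 19 members higher and 0 lower, beside 5.81% and 4.29% of genes. In bulk tissue, more cells of a type and more RNA per cell cannot be told apart.

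**Figure D1:**
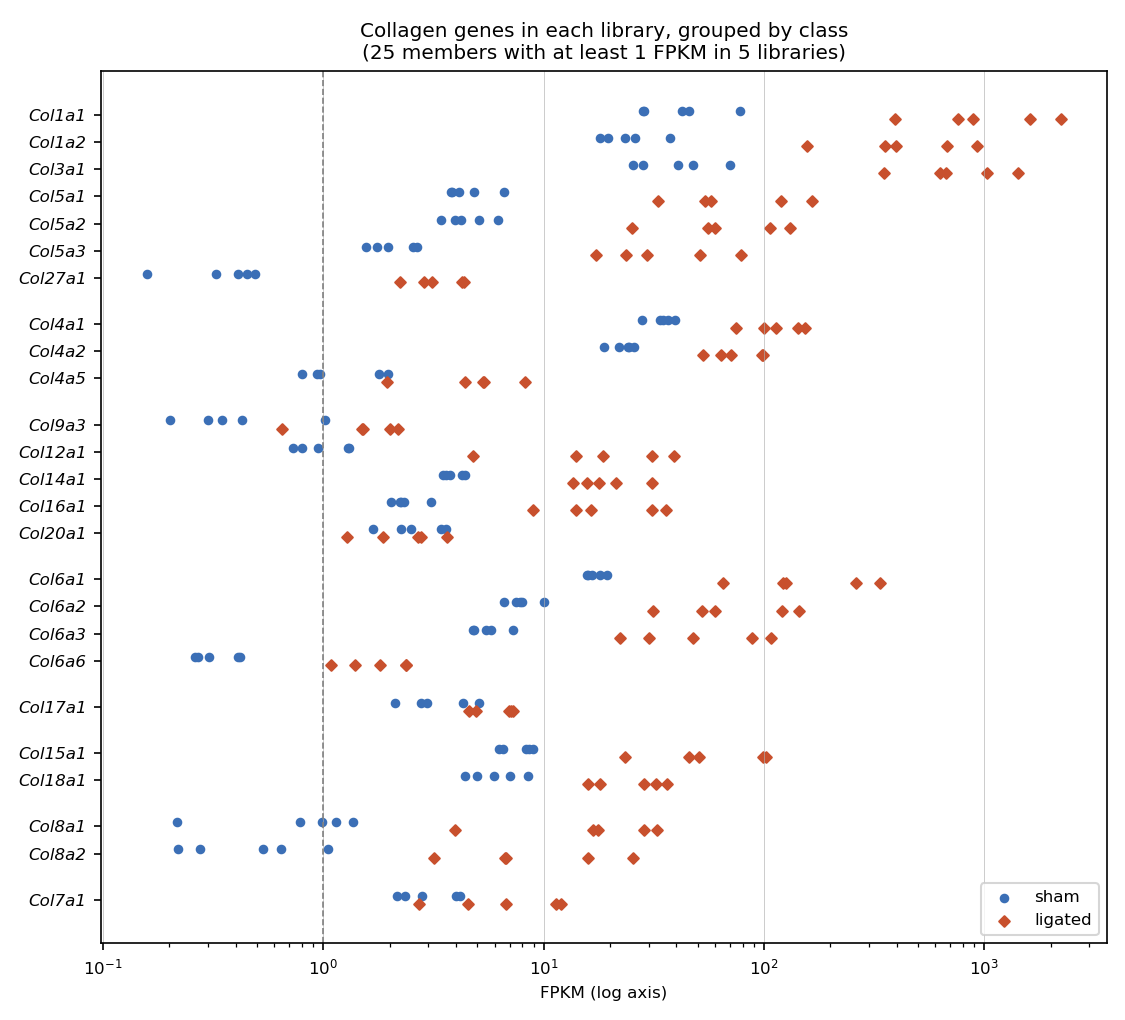
FPKM of the 25 tested collagen genes in each library on a log axis, sham as circles and ligated as diamonds, with genes grouped by class and the filter of 1 FPKM as a dashed line. In Col1a1 the sham libraries reach 77.9 FPKM and the ligated ones start at 394 FPKM, while in Col20a1 both groups cover the same range.

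Of 11 fibrillar genes 7 were tested and all 7 rose, the chains of types I and III from the highest sham levels of the class. Col1a1, which encodes the chain present in 2 copies of the type I trimer, stood at 28.5, 77.9, 45.7, 28.3 and 42.5 FPKM in sham 1 to 5 and at 394, 2238, 763, 889 and 1618 FPKM in ligated 1 to 5. The groups were far apart, with ligated 2 and 5 the highest and ligated 1 the lowest. Col1a2, the partner chain of type I, stood at 18.1, 37.3, 25.9, 19.6 and 23.4 FPKM in sham 1 to 5 and at 157, 932, 354, 399 and 676 FPKM in ligated 1 to 5. Col3a1, the only chain of type III, stood at 28.3, 70.1, 47.8, 25.4 and 40.6 FPKM in sham 1 to 5 and at 351, 1428, 629, 670.5 and 1033 FPKM in ligated 1 to 5. Sham 2 was the highest sham library in all 3. Col1a1 rose by 4.55 ± 0.45 on the log2(FPKM + 1) scale (SE, n = 5 per group, limma, adjusted p = 0.000102), Col1a2 by 4.09 ± 0.41 (adjusted p = 0.00011) and Col3a1 by 4.18 ± 0.38 (adjusted p = 8.19e-05). Relative to the median of all tested genes these rises were 4.02, 3.56 and 3.66. On GRCm38, GENCODE M21 places Col1a1 (ENSMUSG00000001506.10) on chromosome 11 at 94936224 to 94953042, Col1a2 (ENSMUSG00000029661.16) on chromosome 6 at 4504814 to 4541544 and Col3a1 (ENSMUSG00000026043.18) on chromosome 1 at 45311538 to 45349706.

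Type V chains, which sit inside type I fibrils and limit their width, followed. Col5a1 stood at 3.83, 6.60, 4.13, 3.81 and 4.85 FPKM in sham 1 to 5 and at 33.2, 164, 57.7, 53.8 and 119.8 FPKM in ligated 1 to 5. Col5a2 stood at 3.43, 6.23, 3.95, 4.19 and 5.10 FPKM in sham 1 to 5 and at 25.1, 131, 55.8, 59.9 and 106 FPKM in ligated 1 to 5. Col5a3 stood at 1.56, 2.66, 1.97, 1.76 and 2.55 FPKM in sham 1 to 5 and at 17.3, 78.5, 23.8, 29.4 and 51.2 FPKM in ligated 1 to 5. Each ligated library exceeded each sham library in all 3 genes, and ligated 1 was the lowest and ligated 2 the highest of its group. The rises were 3.73 ± 0.38, 3.59 ± 0.37 and 3.54 ± 0.35 (limma, adjusted p = 0.000108, 0.000117 and 0.000102). Col5a2 lies next to Col3a1 on chromosome 1, with 24614 bases between the gene models and the genes on opposite strands.

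The minor fibril chains started near 0. Col11a1, a chain best known from cartilage fibrils, stood at 0.0303, 0.103, 0.0227, 0.0843 and 0.0878 FPKM in sham 1 to 5 and 0.357, 3.10, 1.40, 2.28 and 3.09 FPKM in ligated 1 to 5. It was above 1 FPKM in 4 ligated libraries, 1 too few for the filter, and without one its change was 1.41 ± 0.28 (limma, adjusted p = 0.00661). Col27a1, also known from cartilage, stood at 0.410, 0.158, 0.324, 0.450 and 0.491 FPKM in sham 1 to 5 and 3.11, 4.37, 2.23, 2.86 and 4.27 FPKM in ligated 1 to 5 (1.66 ± 0.16, adjusted p = 0.000102). Col24a1, a fibrillar chain described in bone, ranged from 0 to 0.0609 FPKM in sham and from 0.280 to 1.13 FPKM after ligation, without overlap. Col11a2 overlapped, at 0.353 to 1.07 FPKM in sham and 0.456 to 0.828 FPKM after ligation. Col2a1, the main collagen of cartilage, was listed at 0 in all sham libraries and reached 0.0167 FPKM, which is 5 reads over the 5 ligated libraries. Of the 8 cartilage markers, Matn1 was at 0 in all 10 libraries, Acan, Cnmd and Hapln1 were under 1 FPKM throughout, and 0 of 2 tested were called. Acan was at 0 in all sham libraries and at 0.0190 to 0.632 FPKM after ligation. Matn3 was at 0 to 0.0513 FPKM and 0.0472 to 1.57 FPKM, with overlap. Cnmd went the other way, from 0.188 to 0.359 FPKM in sham to 0 to 0.154 FPKM after ligation, without overlap. Comp was at 0.216 to 1.87 FPKM in sham and 0.815 to 2.19 FPKM after ligation, and Cytl1 at 0 to 0.939 and 0.440 to 1.55 FPKM, both with overlap. Chad was the highest of the 8 in every library (2.16 to 5.47 and 2.62 to 5.39 FPKM), and the part of cartilage in these collagens was not tested. The summed level was 2.96 to 7.24 FPKM in sham and 4.68 to 8.79 FPKM after ligation. Of 5 bone markers, Ibsp and Sp7 were at 0 throughout and the 1 tested was not called. Their summed level was 1.47 to 2.80 FPKM in sham and 0.534 to 3.81 FPKM after ligation.

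Of 6 type IV genes, the chains of basement membranes, 3 were tested and 3 rose, each by less than the chains of types I, III and V. Col4a1 stood at 34.9, 27.9, 33.7, 36.8 and 39.6 FPKM in sham 1 to 5 and at 74.3, 142, 113, 101 and 153 FPKM in ligated 1 to 5. Col4a2 stood at 24.1, 18.8, 22.1, 24.3 and 25.8 FPKM in sham 1 to 5 and at 53.0, 99.1, 70.7, 63.9 and 97.7 FPKM in ligated 1 to 5. In both genes the groups were apart, the sham libraries lay close together, and the highest ligated library was 2.06 and 1.87 times the lowest. The same span was 5.68 times in Col1a1. Col4a1 rose by 1.69 ± 0.20 and Col4a2 by 1.66 ± 0.19 (limma, adjusted p = 0.000191 and 0.000164), or by 1.16 and 1.14 relative to the median of all tested genes. After median-ratio scaling they rose by 1.02 and 1.00, just past the threshold. The endothelial markers, whose cells also make type IV collagen, were called higher in 8 of 8 tested (4 after median-ratio scaling), with a summed level of 16.7 to 49.9 FPKM in sham, where sham 1 was the highest, and 71.9 to 111 FPKM after ligation. Their part in the rise of Col4a1 and Col4a2 was not tested.

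The other type IV chains stood lower. Col4a5, a chain of specialised basement membranes, stood at 0.932, 0.969, 0.800, 1.97 and 1.79 FPKM in sham 1 to 5 and 1.94, 5.31, 4.41, 5.38 and 8.25 FPKM in ligated 1 to 5, and ligated 1 overlapped the sham group. It rose by 1.34 ± 0.28 (limma, adjusted p = 0.00312), a call lost after median-ratio scaling (0.88) and without the 4 libraries with parotid transcripts (0.90), as well as with quantile normalization (0.73). Col4a6, which pairs with it in smooth muscle and some epithelia, ranged from 0.188 to 0.425 FPKM in sham to 0.384 to 1.72 FPKM after ligation and reached 1 FPKM in 1 library. Col4a3 and Col4a4, chains known from kidney and lung, overlapped between groups, at 0.163 to 0.290 and 0.117 to 0.584 FPKM in sham and 0.0449 to 0.392 and 0.309 to 0.643 FPKM after ligation. These 2 genes also lie head to head, on chromosome 1, as do Col4a5 and Col4a6 on the X chromosome.

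Type VI collagen, the beaded filament that anchors basement membranes to the matrix, rose in its 3 main chains. Col6a1 stood at 18.1, 15.9, 19.3, 15.7 and 16.6 FPKM in sham 1 to 5 and at 65.0, 337, 122, 126 and 261 FPKM in ligated 1 to 5. Col6a2 stood at 6.61, 7.84, 10.1, 7.51 and 8.01 FPKM in sham 1 to 5 and at 31.3, 144, 59.8, 52.4 and 121 FPKM in ligated 1 to 5. Col6a3 stood at 5.49, 4.79, 7.29, 4.85 and 5.77 FPKM in sham 1 to 5 and at 22.3, 108, 47.7, 30.2 and 88.3 FPKM in ligated 1 to 5. Ligated 2 was the highest and ligated 1 the lowest library of its group in each, and no ligated library reached down to the sham range. The rises of 3.11 ± 0.37, 3.00 ± 0.36 and 2.95 ± 0.38 (limma, adjusted p = 0.000216, 0.000212 and 0.000295) were close to each other. Col6a6, a chain that can take the place of Col6a3, went from 0.261 to 0.419 FPKM in sham to 1.09 to 2.38 FPKM after ligation (1.05 ± 0.15, adjusted p = 0.000503). Its call was lost after median-ratio scaling (0.74) or quantile normalization (0.42) and without ligated 2 (0.98) or ligated 3 (0.98). Leaving out the 4 libraries with parotid transcripts ended it too (0.74), as did leaving out the 4 with lymph node transcripts (0.95). Col6a5 did not pass the filter. It stood at 0.583, 0.0875, 0.0307, 0.0702 and 0 FPKM in sham 1 to 5 and 0.657, 1.78, 1.47, 0.734 and 1.36 FPKM in ligated 1 to 5, and sham 1 stood apart from the other sham libraries, near the lowest ligated value.

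Of 8 FACIT genes, whose products bind to the surface of fibrils, 5 were tested and 3 rose, most of all Col12a1. Col12a1, known from tendon and stretched tissue, stood at 1.31, 1.29, 0.729, 0.803 and 0.945 FPKM in sham 1 to 5 and at 4.78, 39.1, 14.1, 18.5 and 31.1 FPKM in ligated 1 to 5. Ligated 1 was the lowest of its group and still above every sham library. Col14a1 stood at 4.40, 3.75, 4.28, 3.51 and 3.60 FPKM in sham 1 to 5 and at 13.5, 31.0, 15.7, 17.8 and 21.4 FPKM in ligated 1 to 5; the libraries of a group lay closer together. Col16a1 stood at 2.26, 2.33, 2.04, 2.23 and 3.08 FPKM in sham 1 to 5 and at 8.98, 36.0, 13.97, 16.5 and 30.9 FPKM in ligated 1 to 5. The rises were 3.21 ± 0.43 for Col12a1, 2.04 ± 0.20 for Col14a1 and 2.56 ± 0.32 for Col16a1 (limma, adjusted p = 0.000353, 0.000102 and 0.000257). Col20a1 did not follow: it stood at 1.68, 2.26, 2.49, 3.61 and 3.40 FPKM in sham 1 to 5 and 2.70, 1.87, 1.28, 3.65 and 2.77 FPKM in ligated 1 to 5, with both groups over the same range (-0.11 ± 0.22, adjusted p = 0.662). That difference turned to 0.28 when libraries were rescaled to the same sum, and to -0.59 and -0.72 with median-ratio scaling and quantile normalization (limma, adjusted p = 0.07 and 0.0507). Col9a3, a chain of cartilage type IX, stood at 0.201 to 1.02 FPKM in sham and 0.646 to 2.19 FPKM after ligation and was not called (0.81 ± 0.20, adjusted p = 0.00751), but was by voom on recovered reads (1.88). Col9a2 was at 0.187 to 0.649 FPKM in sham and 0.276 to 2.07 FPKM after ligation, the top value coming from ligated 5 alone. Col19a1 and Col22a1 were at or near 0, with at most 0.0219 and 0.143 FPKM.

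Both multiplexins rose, Col15a1 and Col18a1, collagens of the zone next to basement membranes whose ends can be released as endostatin-like fragments. Col15a1 stood at 6.26, 6.54, 8.34, 8.98 and 8.60 FPKM in sham 1 to 5 and at 23.4, 99.3, 50.6, 45.8 and 102 FPKM in ligated 1 to 5. Col18a1 stood at 4.38, 5.95, 4.96, 7.01 and 8.46 FPKM in sham 1 to 5 and at 15.8, 36.5, 18.1, 28.5 and 32.4 FPKM in ligated 1 to 5. No values overlapped. Col15a1 rose by 2.72 ± 0.35 and Col18a1 by 1.89 ± 0.25 (limma, adjusted p = 0.000291 and 0.000307). The short-chain collagens of type VIII, which form open nets around vessels and in wounds, started near 1 FPKM. Col8a1 stood at 0.217, 1.14, 0.989, 0.780 and 1.36 FPKM in sham 1 to 5 and at 3.94, 28.5, 16.7, 17.7 and 32.8 FPKM in ligated 1 to 5. Col8a2 stood at 0.276, 0.532, 0.219, 1.05 and 0.641 FPKM in sham 1 to 5 and at 3.17, 16.0, 6.70, 6.71 and 25.5 FPKM in ligated 1 to 5. Ligated 5 was the highest in both. The rises were 3.24 ± 0.45 and 2.75 ± 0.43 (limma, adjusted p = 0.000399 and 0.000685). The order against the fibril chains depended on the pseudocount: the means of Col8a1, Col8a2 and Col12a1 rose 22.2, 21.4 and 21.2 times, those of Col1a1, Col1a2 and Col3a1 26.5, 20.3 and 19.4 times. By voom on recovered reads the log2 changes were 4.39, 4.31 and 4.15 against 4.61, 4.17 and 4.24. Col10a1, the collagen of hypertrophic cartilage, reached 0.247 FPKM at most.

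Neither the 1 tested of 4 transmembrane collagens nor the anchoring fibril chain was called; both serve the attachment of epithelium. Col17a1, a component of hemidesmosomes, the junctions that fix basal cells to the basement membrane, stood at 2.12, 2.95, 2.79, 5.10 and 4.28 FPKM in sham 1 to 5 and 4.91, 6.96, 4.59, 7.14 and 7.26 FPKM in ligated 1 to 5. The groups overlapped, and the change of 0.71 ± 0.20 (limma, adjusted p = 0.0133) was under the fold threshold, which it passed with 1 common sum per library (1.17). Col7a1, which forms the anchoring fibrils beneath stratified epithelium, stood at 2.15, 2.35, 2.80, 4.19 and 4.01 FPKM in sham 1 to 5 and 2.73, 12.0, 4.53, 6.74 and 11.4 FPKM in ligated 1 to 5 and overlapped through ligated 1. At 0.93 ± 0.33 (limma, adjusted p = 0.0329) it missed the fold threshold. It passed without sham 4 (1.02), sham 5 (1.01), ligated 1 (1.18) or ligated 3 (1.04), or with the 4 lymph node libraries left out (1.20). It also passed by voom on recovered reads (1.13) and with 1 common sum per library (1.38). Relative to the median of all tested genes these 2 changes were 0.19 and 0.40. Of 6 general epithelial markers 3 (Cdh1, Krt8 and Krt18) were called higher, but none (0) once libraries were median-ratio scaled, and their sum was 545 to 937 FPKM in sham and 797 to 3323 FPKM after ligation. The other transmembrane chains did not pass the filter. Col13a1 (0.281 to 0.871 against 0.892 to 1.30 FPKM) and Col23a1 (0.259 to 0.795 against 0.868 to 2.37 FPKM) did not overlap between sham and ligated glands. Col25a1, a chain described in neurons, was at most 0.0630 FPKM. Col28a1, described around Schwann cells in mouse nerve, stood at 0.135 to 0.662 FPKM in sham and 0.885 to 1.82 FPKM after ligation, without overlap, and also missed the filter. Of 5 tested Schwann cell markers 0 were called, with a sum of 36.0 to 59.9 FPKM in sham and 44.5 to 65.8 FPKM after ligation. Col26a1 was at most 0.137 FPKM.

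**Figure D2:**
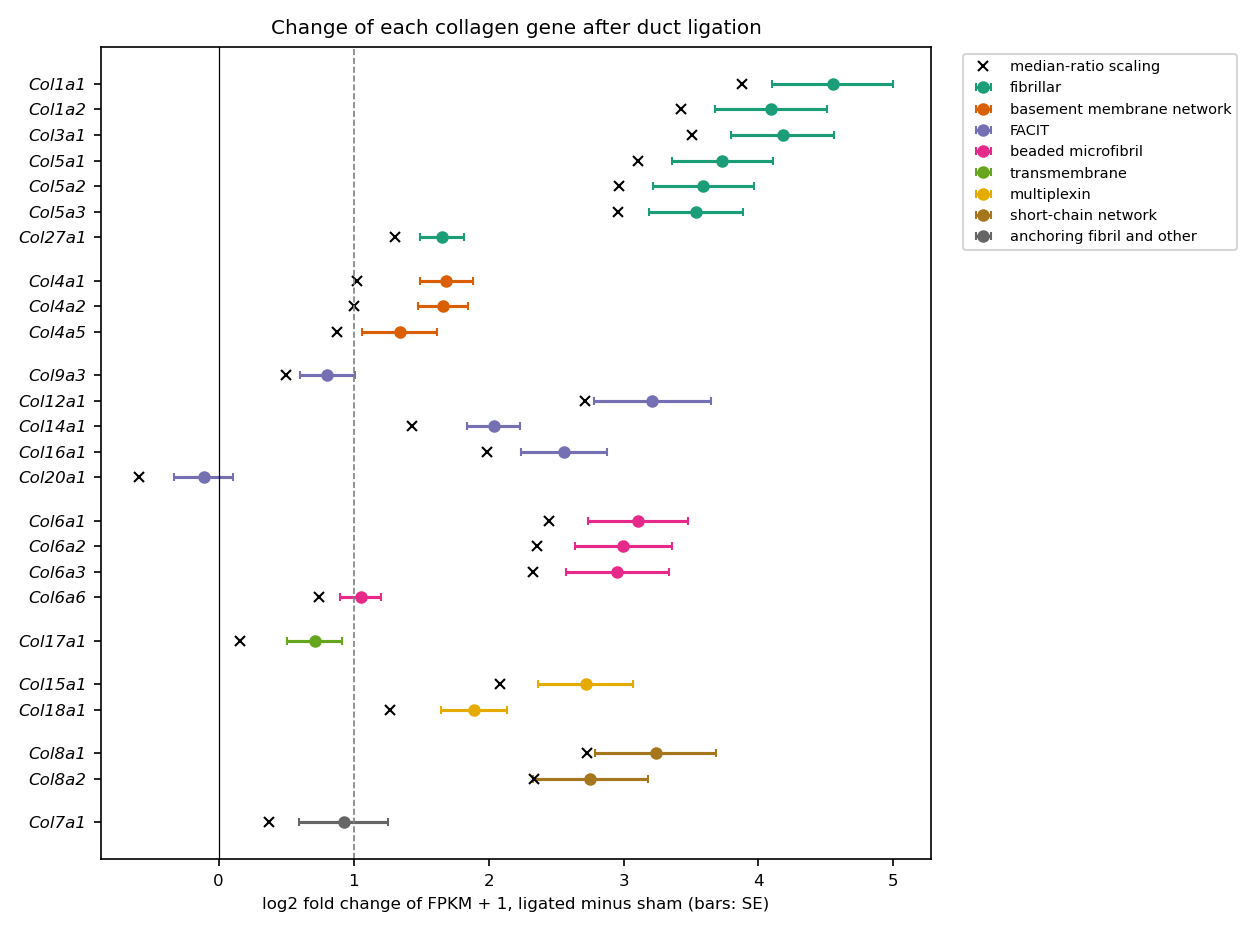
Log2 fold change (ligated minus sham, on FPKM + 1) of the 25 tested collagen genes with its SE, coloured by class, and the value after median-ratio scaling as a cross. The changes run from -0.11 in Col20a1 to 4.55 in Col1a1, and the dashed line marks the threshold of 1.

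With these unequal changes the make-up of the collagen transcripts differed between groups. Fibrillar chains held 41.5, 65.1, 50.9, 39.1 and 46.2% of the summed collagen FPKM in sham 1 to 5 and 74.4, 81.2, 76.7, 79.1 and 77.6% in ligated 1 to 5. The sham libraries were uneven, with sham 2 the highest, and the ligated ones close together and all above them. Type IV chains went the other way, from 15.6 to 29.7% in sham to 4.04 to 9.89% in ligated glands, although their own level was higher there (48.4 to 68.2 against 131 to 261 FPKM). Type VI chains held 9.33 to 15.2% in sham and 7.90 to 10.2% in ligated glands, FACIT chains 3.39 to 5.21% and 1.80 to 2.35%, and multiplexins 4.03 to 7.38% and 2.21 to 2.97%. Transmembrane chains held 1.15 to 2.82% in sham and 0.167 to 0.508% in ligated glands. The collagens together took 0.0405 to 0.0530% of all FPKM of a sham library and 0.291 to 1.82% of a ligated one. These sums are descriptions with no test.

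**Figure D3:**
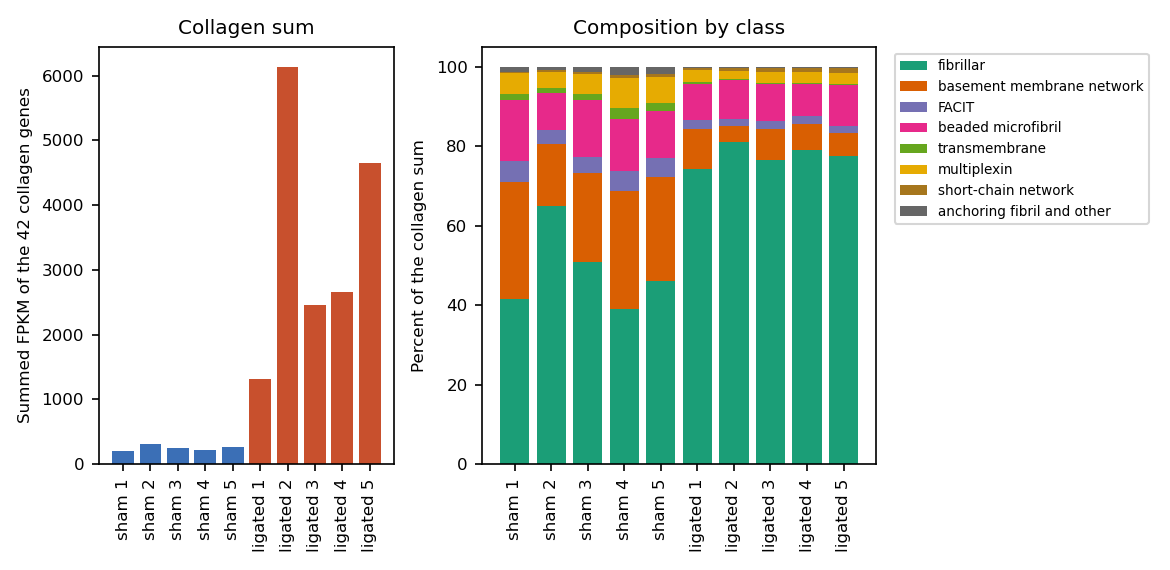
Summed FPKM of the 42 collagen genes per library (left, bars from 0) and the percent of that sum in each class (right). The sum reaches 310.0 FPKM in sham and starts at 1321 FPKM after ligation, and the fibrillar share is 74.4 to 81.2% in the ligated libraries.

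Ratios between chains within a library do not depend on how libraries are scaled. Of 14 pairs compared by an exact permutation test (two-sided), 7 differed between groups after Benjamini-Hochberg adjustment over the pairs, 5 with a higher and 2 with a lower ratio after ligation. The pairs were chosen with earlier results of these data known, so the count and the p-values are no independent support. For genes with unequal rises in the fit, such as Col1a1 and Col4a1, a difference in the ratio restates those rises. Log2 differences were taken on FPKM + 0.1, and the ratios are printed without it. The ratio of Col1a1 to Col1a2 was 1.58, 2.09, 1.76, 1.44 and 1.82 in sham 1 to 5 and 2.50, 2.40, 2.15, 2.23 and 2.39 in ligated 1 to 5. Every ligated library was above every sham library, a log2 difference of 0.44 ± 0.10 (SE, n = 5 per group; exact p = 0.00794, adjusted p = 0.0222), which is the smallest p that 5 against 5 can give. The level of this ratio rests on the merged exon lengths of the gene models, 6563 bases for Col1a1 and 12426 bases for Col1a2, while the difference between groups does not, unless the transcript forms differ.

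Relative to Col1a1, the chains of types III and V were lower after ligation. Col3a1 over Col1a1 was 0.993, 0.901, 1.05, 0.899 and 0.957 in sham 1 to 5 and 0.891, 0.638, 0.825, 0.754 and 0.638 in ligated 1 to 5, with the groups just apart, a log2 difference of -0.37 ± 0.11 (exact p = 0.00794, adjusted p = 0.0222). Col5a1 over Col1a1 was 0.134, 0.0848, 0.0904, 0.135 and 0.114 in sham 1 to 5 and 0.0842, 0.0735, 0.0757, 0.0605 and 0.0740 in ligated 1 to 5, also just apart (-0.61 ± 0.16; exact p = 0.00794, adjusted p = 0.0222). Against type IV the contrast was wide: Col1a1 over Col4a1 was 0.816, 2.79, 1.35, 0.769 and 1.07 in sham 1 to 5 and 5.30, 15.7, 6.74, 8.84 and 10.6 in ligated 1 to 5 (2.87 ± 0.43; exact p = 0.00794, adjusted p = 0.0222). Sham 2 had the highest ratio of its group here too.

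Within the FACIT and multiplexin classes the balance also differed. Col12a1 over Col14a1 was 0.298, 0.344, 0.170, 0.229 and 0.262 in sham 1 to 5 and 0.353, 1.26, 0.896, 1.04 and 1.45 in ligated 1 to 5 (1.73 ± 0.39; exact p = 0.0159, adjusted p = 0.037). Ligated 1 was barely above the highest sham value, and the other 4 ligated libraries were far above it. Col15a1 over Col18a1 was 1.43, 1.10, 1.68, 1.28 and 1.02 in sham 1 to 5 and 1.48, 2.72, 2.80, 1.61 and 3.15 in ligated 1 to 5 (0.81 ± 0.26; exact p = 0.0238, adjusted p = 0.0476), with ligated 1 and 4 inside the sham range. The first of these calls was lost with 1 FPKM added in place of 0.1 (1.18). It was also lost without any 1 of 8 libraries (all but sham 2 and ligated 1) and the second without any 1 of 9 (all but sham 3), where 4 were compared with 5, and the differences then were 1.56 to 1.78 and 0.69 to 0.96.

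Other ratios between chains of 1 trimer did not pass. Col4a1 over Col4a2, the pair printed above with its common 78 bases, was 1.45, 1.49, 1.53, 1.51 and 1.53 in sham 1 to 5 and 1.40, 1.44, 1.60, 1.57 and 1.56 in ligated 1 to 5. The groups lay over each other, with a log2 difference of 0.01 ± 0.04 (exact p = 0.786, adjusted p = 0.846). Its sham SD on the log2 scale was 0.034, against 0.204 for Col1a1 over Col1a2. Col6a1 over Col6a2 was 2.74, 2.03, 1.92, 2.08 and 2.08 in sham 1 to 5 and 2.08, 2.33, 2.04, 2.40 and 2.15 in ligated 1 to 5 (0.04 ± 0.10; adjusted p = 0.843, same exact test), and the groups overlapped. Col6a3 over Col6a1 (-0.03 ± 0.13) and Col5a1 over Col5a2 (0.14 ± 0.11) overlapped as well and did not pass (adjusted p = 0.865 and 0.432, exact permutation test). Neither did Col4a5 over Col4a1 (0.13 ± 0.27), Col8a1 over Col8a2 (0.22 ± 0.47) or Col12a1 over Col1a1 (-0.59 ± 0.30), with adjusted p = 0.808, 0.808 and 0.181 in the exact test. Adding 1 FPKM in place of 0.1 brought Col12a1 over Col1a1 past the threshold (-1.34). A p that misses the threshold does not show that a ratio was the same.

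**Figure D4:**
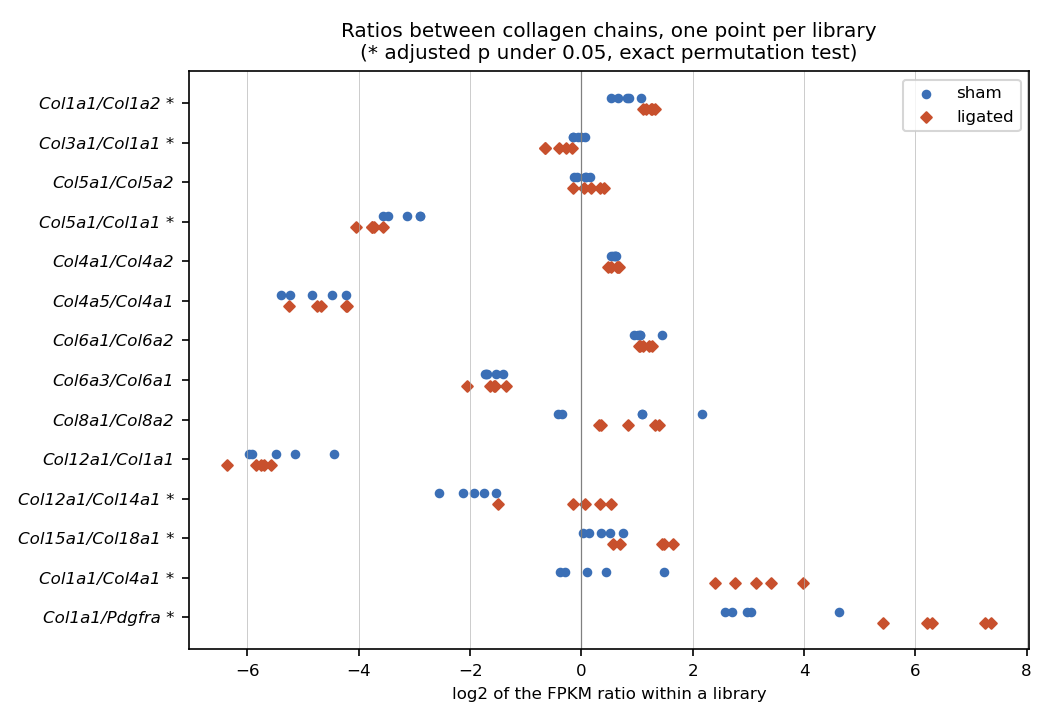
Log2 of the FPKM ratio of each of 14 gene pairs, 1 point per library, sham as circles and ligated as diamonds, with an asterisk where the adjusted p of the exact permutation test is under 0.05. The points of Col4a1/Col4a2 lie together in both groups, whereas those of Col1a1/Col4a1 are apart, at ratios of up to 2.79 in sham and from 5.30 in ligated glands.

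The ligated libraries kept a similar order from gene to gene. Over the 25 tested genes ligated 1 was the lowest ligated library in 22, and ligated 2 was the highest in 17, ligated 5 in 6 and ligated 4 in 2. All 7 tested fibrillar and all 4 tested type VI genes peaked in ligated 2, whereas Col4a1, Col4a5, Col8a1, Col8a2, Col15a1 and Col17a1 peaked in ligated 5. Among sham libraries, sham 2 was the highest in 6 of the 7 fibrillar genes and the lowest in Col4a1 and Col4a2. Genes of a library share its depth and tissue make-up, so these counts describe libraries.

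Markers of the cells known to make collagen moved as well. Of 10 fibroblast markers 9 were tested and 9 called higher. Their summed level was 174, 97.2, 96.0, 90.2 and 95.2 FPKM in sham 1 to 5 and 332, 977, 579, 597 and 646 FPKM in ligated 1 to 5, highest in ligated 2 and lowest in ligated 1 of the ligated group, as for Col1a1. That order was not particular to fibroblast markers. The endothelial sum was also highest in ligated 2 (111 FPKM) and lowest in ligated 1 (71.9 FPKM) of the ligated group. Macrophage markers and pericyte and smooth muscle markers peaked in ligated 2 as well. Sham 1, the lowest of all in summed collagens, was the highest sham library in the fibroblast sum, and Tcf21 was at 0 in all 10. In sham 1 Vim stood at 70.4 FPKM and Thy1 at 19.3 FPKM, against at most 21.7 and 2.70 FPKM in sham 2 to 5. Pdgfrb, Dcn and Fap were also highest in sham 1 of the sham group, whereas Lum (12.3 FPKM) and Pi16 (1.70 FPKM) were lowest there. The part of the lymph node transcripts of sham 1 in these values was not tested. After median-ratio scaling 5 of the 9 tested fibroblast markers were called higher. Pdgfra, a receptor that marks fibroblasts, was at 4.37, 3.14, 5.78, 4.74 and 5.15 FPKM in sham 1 to 5 and 9.15, 14.7, 10.3, 11.3 and 9.87 FPKM in ligated 1 to 5. Col1a1 over Pdgfra was 6.52, 24.8, 7.91, 5.97 and 8.24 in sham 1 to 5 and 43.1, 152, 74.1, 78.8 and 164 in ligated 1 to 5, a log2 difference of 3.34 ± 0.51 (exact p = 0.00794, adjusted p = 0.0222), so that the 2 genes rose unequally. Pericyte and smooth muscle markers were called higher in 5 of 9 and macrophage markers in 6 of 6, with summed levels of 197 to 306 and 108 to 479 FPKM in sham and 244 to 419.9 and 847 to 1597 FPKM after ligation. With median-ratio scaling these counts were 3 and 5. The first list was split: Myh11 (-0.31), Cnn1 (-0.19), Acta2 (0.19) and Kcnj8 (0.98) were not called. Submandibular acinar and tubule markers were called lower in 10 of 10, their sum being 136819 to 292361 FPKM in sham and 8457 to 75204 FPKM after ligation. The part of these cells in the collagen values was not tested.

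Transcripts of neighbouring tissue can be set beside the collagens library by library. Sham 1, with lymph node markers summing to 501 FPKM and Bpifa2 at 14814 FPKM, had the lowest collagen sum of the 10, 204 FPKM. In ligated 1 to 5 lymph node markers summed to 333, 311, 391, 24.3 and 25.1 FPKM. Bpifa2 was at 43.5, 18720, 34754, 1.46 and 16877 FPKM there, beside collagen sums of 1321, 6137, 2462, 2665 and 4656 FPKM. Leaving out the 4 libraries with parotid transcripts gave 19 members higher, and leaving out the 4 with lymph node transcripts gave 21. The first kept only ligated 1 and ligated 4, the second only ligated 4 and ligated 5, each against sham 2 to 5. Adipocyte markers summed to 218, 240.3, 524, 849.5 and 404 FPKM in ligated 1 to 5 and skeletal muscle markers to 29.3, 454, 203, 689 and 327 FPKM. Both were highest in ligated 4, a library in the middle for collagens. Ligated 2, the top library for collagens, was the second lowest for adipocyte markers and the second highest for muscle markers. Fat and muscle also hold types I, III, IV and VI collagen. As their markers were near 0 in sham glands and high in all ligated ones, their collagen cannot be told apart from that of the gland.

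**Figure D5:**
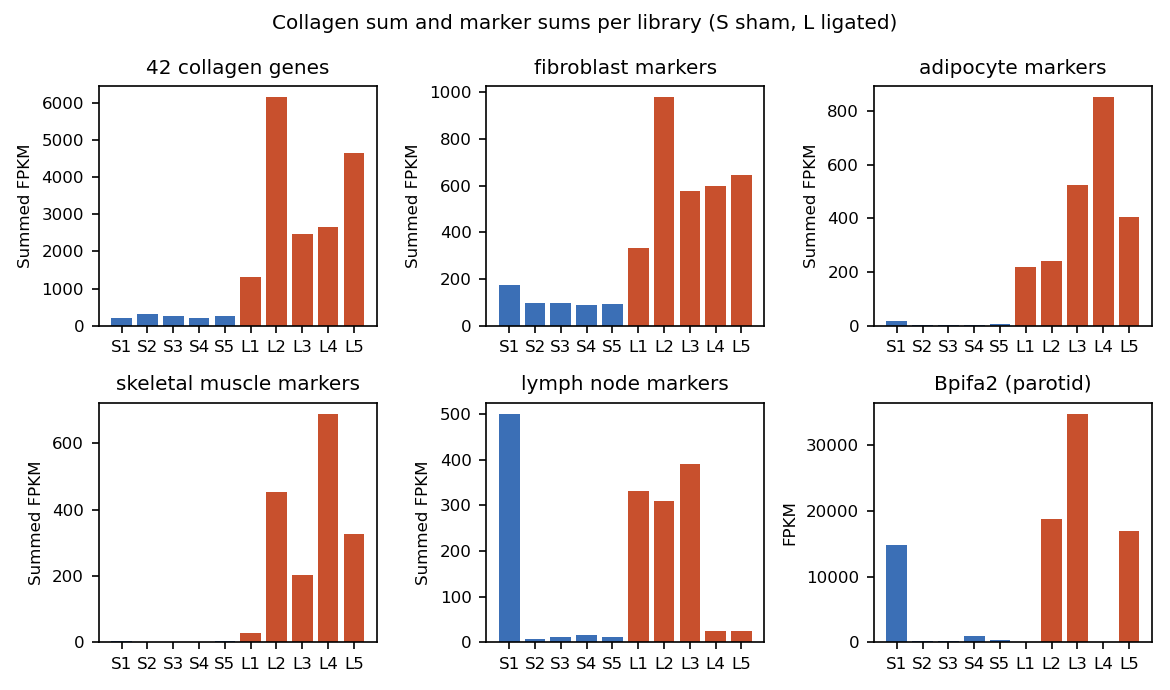
Summed FPKM per library of the 42 collagen genes and of 4 marker lists, and FPKM of Bpifa2, with bars from 0 (S sham, L ligated). The collagen and fibroblast panels share their highest library (ligated 2) and lowest ligated library (ligated 1), as does the endothelial sum, which is not drawn. Adipocyte and muscle markers peak in ligated 4.

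The enzymes that fold, secrete and crosslink collagen rose in 18 of the 24 tested genes of a list of 32, and 0 fell. With median-ratio scaling the counts were 14 and 1 (Mia3). Serpinh1, the collagen-specific chaperone of the endoplasmic reticulum, stood at 42.1, 25.7, 32.3, 30.7 and 37.1 FPKM in sham 1 to 5 and 136, 312, 181, 152 and 267 FPKM in ligated 1 to 5, and rose by 2.55 ± 0.24 (limma, adjusted p = 0.000102). P4hb, a subunit of prolyl 4-hydroxylase that also serves disulfide formation in other secreted proteins, was at 472 ± 87.6 FPKM in sham and 383 ± 95.5 FPKM after ligation (mean ± SD, n = 5 per group) and was not called (-0.32 ± 0.22, limma, adjusted p = 0.224). After median-ratio scaling its change was -0.99 (limma, adjusted p = 0.017), just short of the fold threshold.

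Of 11 collagen receptors 6 were tested, 4 were called higher and 0 lower, and 1 (Mrc2) still was with median-ratio scaling. Itgb1, the beta subunit of collagen-binding integrins, stood at 47.3 ± 5.82 FPKM in sham and 125 ± 29.1 FPKM after ligation (mean ± SD, n = 5 per group). It rose by 1.35 ± 0.19 (limma, adjusted p = 0.000405), a call lost after that scaling (0.68). The receptor kinase gene Ddr1, at 31.8 ± 7.11 and 54.7 ± 20.9 FPKM, missed the fold threshold (0.71 ± 0.26, limma, adjusted p = 0.0376). Of 7 proteases that cleave collagen, all 4 tested (Mmp2, Mmp9, Mmp14 and Ctsk) were higher, also after median-ratio scaling. Mmp2, a gelatinase, went from 13.96 ± 2.71 to 159 ± 84.6 FPKM and rose by 3.26 ± 0.34 (limma, adjusted p = 0.000117). Mmp14, its membrane-bound activator, went from 5.14 ± 2.48 to 62.0 ± 30.8 FPKM and rose by 3.29 ± 0.34 (limma, adjusted p = 0.000117).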

How the data were processed

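RNA was measured by sequencing in 10 libraries, 5 ligated and 5 sham, with replicate numbers from the sample titles. The design text gives 5 mice per group, and each library was taken as 1 mouse. The authors deposited FPKM values per gene. The submitters' processing notes name the build mm10 (GRCm38). Aligner, counter and annotation: not given in the sources used here. Members, gene lists and tests were chosen with earlier results of these data known.

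FPKM are not counts, so log2(FPKM + 1) was fitted with limma 3.58.1 in R 4.3.3 with the 2 groups and a mean-variance trend, over genes reaching 1 FPKM in 5 or more libraries, and p-values are two-sided. The pseudocount understates changes of low genes. Multiplying FPKM by the merged exon length of GENCODE M21 gave whole reads (within 0.01) in 98.3% to 98.4% of values under 200 reads, and voom was run on them. Whether 1 unit is a read or a fragment is not known, and counting error only is meant by the floor of 3 reads. Exons of 12 members overlap another gene, by under 20% of their length, and the strand of counting is not stated. Chain ratios used FPKM + 0.1 in the exact permutation test, while printed ratios have no pseudocount. The fit was tested on simulated data.

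Named genes are all members, and in each pathway list the 2 with the highest mean. Alternatives were other pseudocounts, filters and scalings, the replicate block, voom and leaving out each library. Leaving out libraries with parotid or lymph node transcripts was added after seeing the data. These fits kept only ligated 1 and ligated 4, or only ligated 4 and ligated 5, in the ligated group. Every value column belonged to a sample (0 were left over) and 0 pairs of libraries were identical.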

Additional observations from a re-analysis of the deposited data

Results flagged for a closer look

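In 7 of 82 groups of 5 libraries, 1 library stood apart from the other 4 on the log2(FPKM + 1) scale, all in genes that did not pass the filter. The rule flags about 1 in 20 groups of normally distributed values, so that rate is no measure for values near 0. In the sham groups of Col10a1 and Col22a1 the other 4 libraries were at 0, so any value above 0 was flagged. Sham 1 was the highest of its group in Col6a5 (0.583 FPKM), Col22a1 (0.143 FPKM) and Col23a1 (0.795 FPKM) and the lowest in Col4a3 (0.163 FPKM). It is also the sham library with lymph node and parotid transcripts, and their part in these values was not tested. Sham 4 was the highest in Col4a6 (0.425 FPKM), and sham 3 in Col10a1 (0.0369 FPKM, the other 4 at 0). Ligated 5 was the highest in Col9a2 (2.07 FPKM, the next at 0.475 FPKM).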

How the results depend on the processing

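Over 21 alternatives 15 to 24 members were called higher and 0 lower, with 15 under the filter at 5 FPKM, which tests fewer genes, and 20 to 22 when 1 library was left out. The cause of the other changes was not tested. All genes called higher went from 2031 to 757 with a pseudocount of 5, 1166 with the filter at 5 FPKM, 811 with median-ratio scaling, 5464 with the same sum, 689 with quantile normalization and 3247 by voom (1725 to 2732 without 1 library). All genes called lower went from 138 to 70 (pseudocount 5), 498 (median-ratio), 65 (same sum), 509 (quantile) and 79 (parotid-transcript libraries left out), and 102 to 202 without 1 library. The median log2 fold change of the tested members, 2.72, was 1.72 with a pseudocount of 5, 2.08 and 2.14 with median-ratio scaling and quantile normalization, 1.90 without those 4 libraries and 2.41 to 3.03 without 1 library. Counted in reads, the fibrillar share of ligated glands was 81.3% in place of 77.8%. Col20a1 changed sign with the same sum (0.28), without the 4 parotid (0.0881) or lymph node libraries (0.10) and without ligated 3, its values without 1 library being -0.229 to 0.0289. A pseudocount of 5 ended the calls of Col4a5 (0.65), Col6a6 (0.35) and Col27a1 (0.63).

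Of the chain ratios, 5 to 6 pairs passed without 1 library, against 7. Differences near 0 changed sign when 1 library was left out, with ranges of -0.00771 to 0.0401 (Col4a1/Col4a2), -0.00265 to 0.276 (Col4a5/Col4a1), -0.00228 to 0.125 (Col6a1/Col6a2), -0.102 to 0.073 (Col6a3/Col6a1) and -0.0315 to 0.507 (Col8a1/Col8a2). With a pseudocount of 1, Col4a5/Col4a1 became -0.346. Same-numbered libraries deviated with correlations of -0.38 to 0.58, over 0.1 in 3 of 5, and 2 of 5 sham libraries matched their own number best. With 5 numbers this cannot settle whether the numbers pair mice. The replicate block kept the count of members at 21 higher and 0 lower, with 2082 genes higher and 121 lower in all. In the paired sign-flip test, whose smallest p is 0.0625, 0 pairs passed. Values under the floor of 3 reads carry no direction.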

Other observations

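The table holds 44 rows named as collagen chains, 42 of them listed. The other 2 are Col6a4 and Col9a1. Col6a4, a type VI chain, was at 1.12 FPKM in sham 1 and 1.16, 1.17 and 1.65 FPKM in ligated 1, 2 and 3. In sham 2 to 5 it was at 0, and in ligated 4 and 5 at 0.00818 and 0.0177 FPKM. The 4 libraries where it was above 1 FPKM are the 4 with lymph node markers summing to the highest values (501 in sham 1 and 333, 311 and 391 in ligated 1, 2 and 3), against at most 25.1 FPKM elsewhere. This was noticed in the data and not tested. Col9a1 reached 0.0610 FPKM in sham 1 and was at 0 in the other 9 libraries.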
